A study of Mus musculus with 6 samples.

Results

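The genes described here are 8 mouse genes of the middle of glycolysis, taken as a list by symbol: Gpi1, Aldoa, Aldoc, Tpi1, Gapdh, Pgk1, Pgam1 and Pgam2. They hold 9 of the 35968 gene identifiers with a transcript in the deposited data, since the annotation gives the name Aldoa to 2 identifiers, and all 9 passed the filter on low counts, as did 13221 genes in all. RNA-seq covered 6 libraries of MS-5, a mouse stromal cell line: 3 of cells grown on their own, called MS-5 only (MO1, MO2, MO3), and 3 of cells that had shared the culture with SKM-1 for 24 hr, called co-culture (MC1, MC2, MC3). SKM-1 is a human AML cell line, and it was plated at 4 AML cells per stromal cell over confluent stroma. Neither group carries a further treatment or allele, each side is 1 cell line, and the stromal cells were parted from the leukaemic cells by washing and mild trypsinisation before RNA was extracted. Reads had been quantified against mouse transcripts alone, so reads of SKM-1 RNA enter the counts to the extent that they match mouse sequences. The labels do not say whether replicates were separate cultures, so the p-values measure the spread between these libraries, which may be technical.

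Glycolysis turns glucose into pyruvate in the cytosol, and these genes encode the enzymes of its middle steps, all of which run near equilibrium in either direction. Glucose phosphate isomerase prepares the sugar for its final phosphorylation, aldolase splits the product into a pair of triose phosphates, triose phosphate isomerase interconverts them, and the dehydrogenase, kinase and mutase steps then yield NADH, ATP and the substrate of enolase. Most of these genes are expressed in nearly every cell and several are textbook targets of the hypoxia-inducible factors, while Gapdh and Pgk1 are also widely used as reference genes for qPCR.

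Total estimated counts ranged from 23978881 to 35694987 a library. MO2 and MC3 stood apart from the other 4 libraries: the mitochondrial share of counts was 6.07% and 5.92%, and 10.6% to 13.2% in the others, and 65170 and 66456 transcripts had a count against 51533 to 57350. All 12 listed stromal markers were detected in every group and 0 passed edgeR's test, with summed levels of 8908 to 12384 CPM. Of 14 leukocyte markers, 11 were tested and 6 rose (Ptprc, Laptm5, Coro1a, Spi1, Irf8 and Csf1r), against 3.71% of all genes tested. Itgal, Lyz2 and Cd53 had log2 fold changes of -0.73, -0.37 and -0.11 that did not pass, with all co-culture values of Itgal below the others. The summed level of the list was 42.9 to 55.4 CPM in MS-5 only and 77.6, 282 and 73.0 CPM in MC1, MC2 and MC3. The excess of MC2 over MS-5 only was set against the mean excess in MC1 and MC3, and this ratio was 3.996 to 9.49 (median 6.33) for the 8 leukocyte markers with all co-culture values above the others. Irf8, a transcription factor of myeloid cells, was at 0 in each MS-5 only library, with 46, 191 and 74 counts in MC1, MC2 and MC3. The part of these transcripts in the results that follow was not tested beyond the values given. In bulk RNA, fewer cells of a type and less RNA per cell cannot be told apart.

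All 8 genes had higher mean levels in co-culture, with a median log2 fold change of 1.12 against -0.02 over the 13221 genes tested. None of the 8 passed the threshold, an adjusted p-value under 0.1 in edgeR's quasi-likelihood test (Benjamini-Hochberg, adjusted over all genes tested), where 3.71% of genes passed as higher. Unadjusted p-values were under 0.05 for 6 of the 8, against 8.62% of all genes tested that had such a p and were higher. DESeq2's Wald test called 5 of the 8 higher (Gpi1, Aldoa, Aldoc, Tpi1 and Pgam1), and 6.94% of all genes. With limma on log2(TPM + 0.5) 5 were called higher too (Gpi1, Aldoa, Tpi1, Pgk1 and Pgam1), and 2.56% of all genes. In 6 of the 8 genes all co-culture values were above all MS-5 only values in CPM, an arrangement that 11.6% of all genes tested showed. CPM here are counts relative to the library size as scaled by edgeR's TMM, and serve to compare 1 gene between libraries. With 3 libraries a group, an exact permutation test of 1 value cannot go below p = 0.1, so none was run.

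Gpi1 encodes glucose phosphate isomerase, which turns glucose phosphate into fructose phosphate (chr7:34201330-34230336, minus strand, GRCm38). Its level was 571, 363 and 555 CPM in MO1, MO2 and MO3 against 1324, 1104 and 803 CPM in MC1, MC2 and MC3. The groups did not overlap, and MO2 and MC3 were the lowest library of their group. The log2 fold change was 1.12 ± 0.29 (SE, n = 3 a group), with an adjusted p-value of 0.121 in edgeR's quasi-likelihood test.

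Aldoa encodes the aldolase of muscle and of most other tissues, which splits fructose bisphosphate (chr7:126795234-126800751, minus strand). Its level was 1072, 657 and 1001 CPM in MO1, MO2 and MO3 against 2598, 2360 and 1460 CPM in MC1, MC2 and MC3. The co-culture libraries were all above the others, and the log2 fold change of 1.23 ± 0.33 was the highest of the 6 abundant genes (edgeR adjusted p = 0.134). The second identifier named Aldoa, ENSMUSG00000114515.2, lies next to it on the same strand (chr7:126800790-126809108). It had 37, 53 and 40 counts in MO1, MO2 and MO3 against 50, 28 and 72 in MC1, MC2 and MC3, its groups overlapped, and its log2 fold change was -0.05 ± 0.34 (edgeR adjusted p = 0.985). Its transcripts are Aldoa-214, which held 59.9% or more of its TPM in each library, and Aldoa-213.

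Aldoc encodes the aldolase best known from brain (chr11:78322968-78327781, plus strand), and its coding sequence is 75.6% identical to that of Aldoa. It was rare, with 7, 29 and 8 counts in MO1, MO2 and MO3 against 40, 99 and 44 in MC1, MC2 and MC3. MO2 was the highest MS-5 only library, and MC2 the highest in co-culture, where MC1 was the highest for the other 7 genes. The log2 fold change was 2.04 ± 0.71 (edgeR adjusted p = 0.249). The groups did not overlap in CPM, but in TPM MO2, at 1.28, was above MC1, at 0.824.

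Tpi1 encodes triose phosphate isomerase, which converts the triose phosphates into each other (chr6:124810586-124814296, minus strand). Its level was 842, 542 and 799 CPM in MO1, MO2 and MO3 against 1966, 1603 and 1156 CPM in MC1, MC2 and MC3, with no overlap. The log2 fold change was 1.11 ± 0.30 (edgeR adjusted p = 0.134), close to that of Gpi1.

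Gapdh encodes glyceraldehyde phosphate dehydrogenase, the step that makes NADH (chr6:125161715-125166467, minus strand). Its level was 1259, 605 and 1109 CPM in MO1, MO2 and MO3 against 2043, 1635 and 1046 CPM in MC1, MC2 and MC3. MC3 was below MO1 and MO3, so the groups overlapped. The log2 fold change of 0.67 ± 0.38 was the lowest of the 8 genes (edgeR adjusted p = 0.516).

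Pgk1 encodes phosphoglycerate kinase, which makes ATP from bisphosphoglycerate (chrX:106187100-106203699, plus strand). Its level was 1026, 461 and 932 CPM in MO1, MO2 and MO3 against 1898, 1626 and 990 CPM in MC1, MC2 and MC3. MC3 lay between MO3 and MO1, and MO2 had under 50% of the mean of MO1 and MO3. The log2 fold change was 0.90 ± 0.40 (edgeR adjusted p = 0.378).

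Pgam1 encodes the widely expressed phosphoglycerate mutase, which moves the phosphate before the enolase step (chr19:41911923-41918660, plus strand). Its level was 873, 495 and 746 CPM in MO1, MO2 and MO3 against 1747, 1420 and 1025 CPM in MC1, MC2 and MC3, with no overlap and a log2 fold change of 0.99 ± 0.31 (edgeR adjusted p = 0.204). Pgam2, the mutase of muscle (chr11:5801640-5803733, minus strand), had 1 transcript, Pgam2-201, and 11, 19 and 15 counts in MO1, MO2 and MO3 against 55, 35 and 35 in MC1, MC2 and MC3. Its groups did not overlap either, and its log2 fold change was 1.26 ± 0.39 (edgeR adjusted p = 0.190). The coding sequences of Pgam1 and Pgam2 are 74.4% identical, and the abundant form held more than 99% of the summed counts of the pair in each library.

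**Figure D1:**
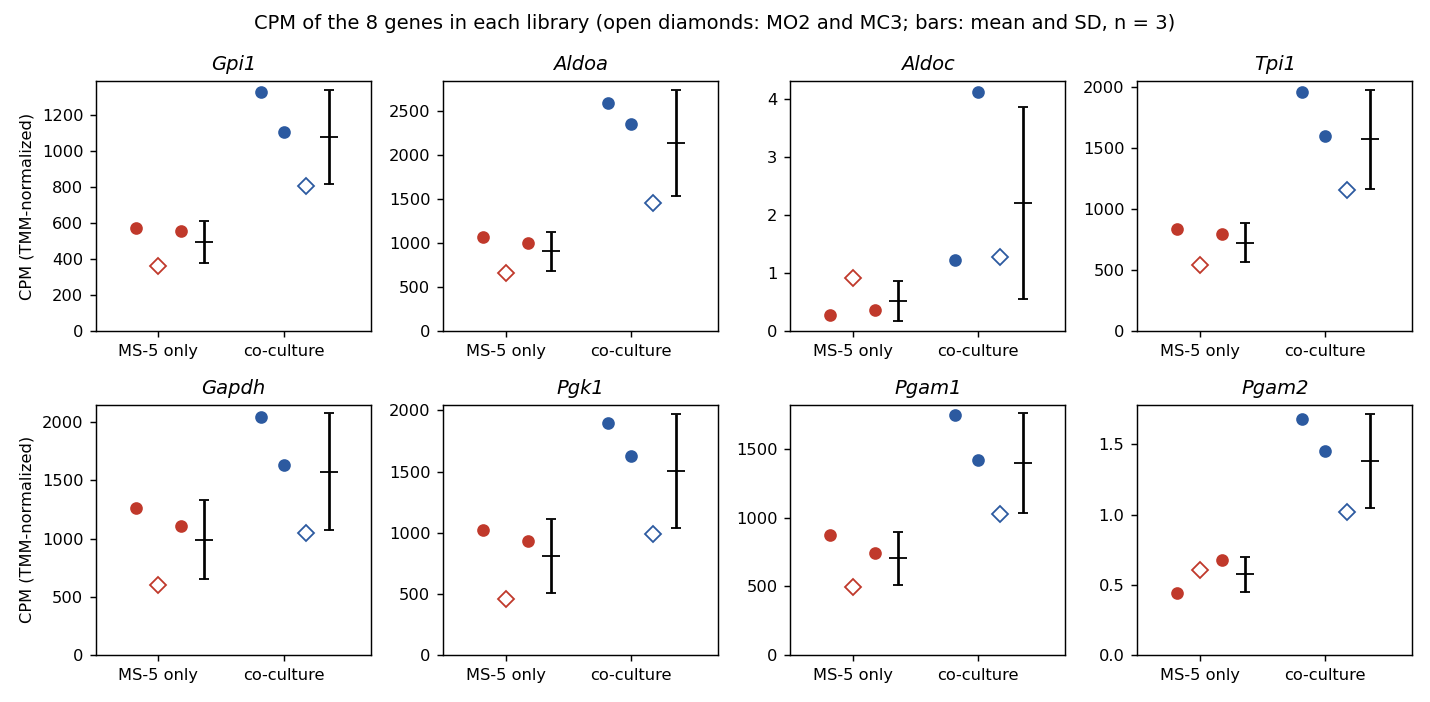
Each panel shows 1 gene, with its level in CPM (TMM-normalized) on the vertical axis, the 3 MS-5 only libraries on the left and the 3 co-culture libraries on the right. Open diamonds are MO2 and MC3, black bars are the mean and SD. In the 6 abundant genes the open diamond is the lowest point of each group, and for Gapdh the co-culture diamond (1046) lies below the filled MS-5 only points (1259 and 1109).

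MO2 and MC3, which stood apart in mitochondrial share and in transcripts with a count, were the lowest libraries of their groups in the 6 abundant genes. There MO2 had 47.1% to 66.1% of the mean CPM of MO1 and MO3, and MC3 had 56.2% to 66.1% of the mean of MC1 and MC2. The ratio between the groups was similar inside each set of libraries: MC3 over MO2 was 2.21 for Gpi1, and the mean of MC1 and MC2 over the mean of MO1 and MO3 was 2.16. For Aldoa the ratios were 2.22 and 2.39. Tpi1 gave 2.13 and 2.17. For Gapdh they were 1.73 and 1.55. Both ratios were therefore above 1.5 in each of these 3 genes and in Gpi1. Pgk1 had 2.15 and 1.80, and Pgam1 had 2.07 and 1.96. In the rare genes they lay further apart, with 1.39 and 8.31 for Aldoc and 1.68 and 2.80 for Pgam2.

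All 8 genes rose in a fit with MO2 and MC3 marked by a covariate, and 13.9% of all genes tested passed as higher in that fit. That covariate was set with the values of these libraries in view, and the labels name no batch. The fold changes moved little and the standard errors of the abundant genes became smaller. Aldoa had a log2 fold change of 1.22 ± 0.08 (edgeR adjusted p = 0.00729) and Gpi1 1.12 ± 0.09 (edgeR adjusted p = 0.00866). Gapdh was at 0.69 ± 0.11 (edgeR adjusted p = 0.0164), and the rare Aldoc was just past the threshold (edgeR adjusted p = 0.0991). With MO2 and MC3 both left out, 7 of the 8 genes rose (8.33% of all genes), and with MC3 alone left out, 2 did (Gpi1 and Aldoa, against 3.91% of all genes). With the replicate number as a block, 0 of the 8 passed, against 3.35% of all genes called higher. What sets MO2 and MC3 apart was not tested.

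**Figure D2:**
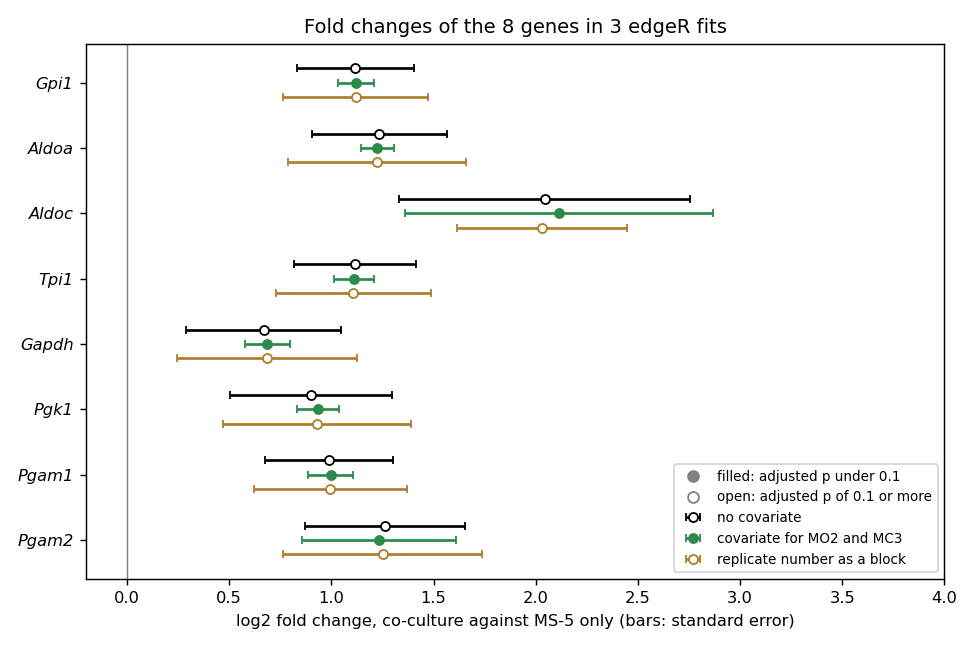
Points are log2 fold changes of co-culture against MS-5 only for each gene and bars are standard errors, from edgeR's quasi-likelihood test with no covariate (black), with a covariate for MO2 and MC3 (green) and with replicate numbers as a block (brown). Filled points passed an adjusted p-value of 0.1. All points lie above 0, and only those of the covariate fit are filled, 8 of 8.

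TPM values, which divide by transcript length and allow genes to be compared, had a smaller coefficient of variation than CPM in both groups for the 6 abundant genes. In MS-5 only it was 2.65% in TPM and 23.3% in CPM for Gpi1, and 15.3% and 34.6% for Gapdh. In the rare genes it was larger in TPM there, with 88.8% and 67.1% for Aldoc and 36.5% and 21.4% for Pgam2. In TPM 7 of the 8 genes had all co-culture values above all MS-5 only values (Aldoc was the exception), against 7.68% of all genes tested. Gapdh was at 2251, 1654 and 1934 TPM in MO1, MO2 and MO3 against 3711, 2779 and 2749 TPM in MC1, MC2 and MC3. Thus its groups overlapped in CPM and did not in TPM, and limma on log2(TPM + 0.5) gave it an adjusted p of 0.177. TPM is scaled to a fixed total in each library with no correction for composition, and after division by median-of-ratios factors, which were 1.33 in MO2, 1.30 in MC3 and 0.836 to 0.895 in the other libraries, the summed TPM of the 8 genes was 6079, 3391 and 5474 in MO1, MO2 and MO3 against 12300, 10406 and 6946 in MC1, MC2 and MC3, still with no overlap.

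The order of the levels was the same for the 6 abundant genes in both groups. In MS-5 only the mean was 1946 ± 299 TPM (SD, n = 3) for Gapdh, 894 ± 41.5 for Aldoa and 626 ± 32.3 for Tpi1, followed by 576 ± 102 for Pgk1, 536 ± 52.9 for Pgam1 and 337 ± 8.95 for Gpi1. The ranges of Tpi1 and Pgk1 overlapped, as did those of Pgk1 and Pgam1. Pgam2 and Aldoc were at 1.12 ± 0.410 and 0.632 ± 0.561 TPM, with overlapping ranges. In co-culture Gapdh was at 3080 ± 547 TPM and Aldoa at 2157 ± 143. Tpi1 was at 1362 ± 176, Pgk1 at 1090 ± 135, Pgam1 at 1068 ± 135 and Gpi1 at 719 ± 75.2 TPM. The same neighbours overlapped, and Aldoc, at 3.20 ± 2.83 TPM, could not be ordered against Pgam2, at 2.56 ± 0.249. The first place of Gapdh rests on its transcript Gapdh-206, annotated as a retained intron, with a mean of 1358 TPM in MS-5 only and 2154 in co-culture. Its coding transcript with the highest TPM, Gapdh-203, was at 351 and 557.

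Together the 8 genes held 4918 ± 472 TPM in MS-5 only and 9481 ± 1084 TPM in co-culture, or 0.452% to 1.07% of all transcripts. The ratio of the means was 1.93, and it was 1.97 over nuclear protein-coding genes and 1.98 after division by median-of-ratios factors. In co-culture Gapdh took a smaller and Aldoa a larger share of this sum. Gapdh took 41.4%, 36.6% and 40.3% of it in MO1, MO2 and MO3 against 34.6%, 31.9% and 30.5% in MC1, MC2 and MC3. Aldoa took 17.2%, 19.6% and 17.9% and then 21.3%, 25.0% and 22.2%. Neither pair of ranges overlapped. Most of the Gapdh TPM in these shares was in Gapdh-206. The ratio of Aldoa to Gapdh, which does not depend on how libraries are scaled, was 0.946 ± 0.123 in counts in MS-5 only and 1.37 ± 0.0886 in co-culture, with ranges of 0.851 to 1.09 and 1.27 to 1.44.

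**Figure D3:**
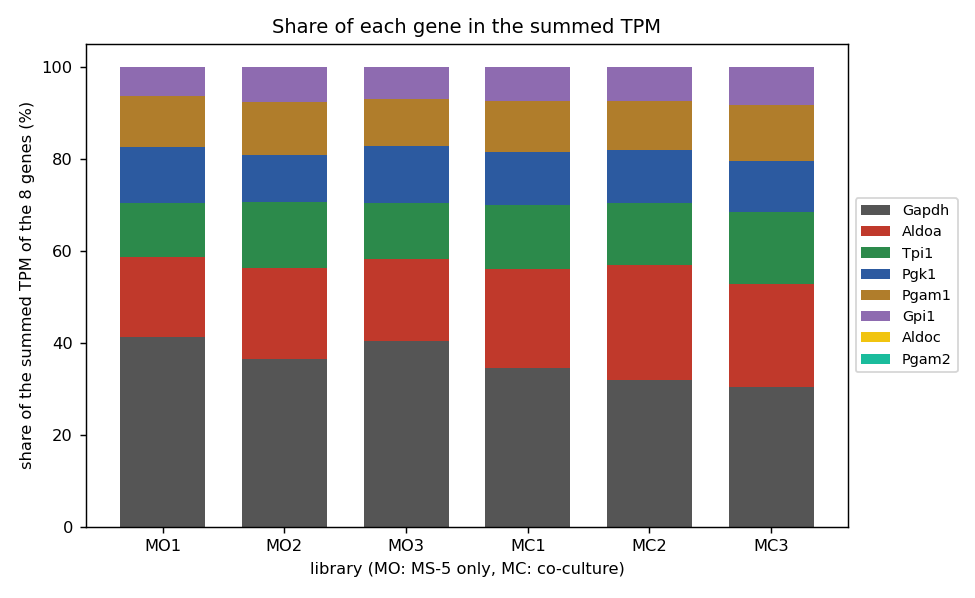
Stacked bars show, for each of the 6 libraries, the share of each gene in the summed TPM of the 8 genes (%). Gapdh (grey, at the base) spans 36.6% to 41.4% in MS-5 only and 30.5% to 34.6% in co-culture, and Aldoa (red) 17.2% to 19.6% and 21.3% to 25.0%. Aldoc and Pgam2 are too rare to be seen.

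Most of the genes were read mainly from 1 transcript. Aldoa-201 held 80.1% to 82.1% of the Aldoa TPM in 5 libraries and 66.9% in MC2. The difference lay in Aldoa-210, a short coding transcript of 776 bases, which was at 119, 92.1 and 114 TPM in MO1, MO2 and MO3 against 307, 622 and 236 TPM in MC1, MC2 and MC3. MC2 was the highest there, as it was for the leukocyte markers. A part of human RNA in this transcript was not tested. Without Aldoa-210, a choice made after its values were seen, the log2 fold change of Aldoa was 1.18 (edgeR adjusted p = 0.138).

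For Gapdh the transcript with the highest TPM was Gapdh-206, which is 565 bases long and annotated as a retained intron. It held 68.3% to 71.3% of the Gapdh TPM in the 6 libraries, but 40.5% to 45.0% of the counts. The coding Gapdh-203 held 17.2% to 18.8% of the TPM and the coding Gapdh-202 6.31% to 8.92%. The 17 other retained-intron transcripts of the 8 genes held 1.42% and 2.17% of the summed TPM in MO2 and MC3 and 0.164% to 0.288% in the other libraries. In Gpi1 the coding Gpi1-201 held 50.1% to 56.1% of the TPM and Gpi1-207, annotated for nonsense-mediated decay, 21.1% to 32.9%. Another transcript of the same annotation, of 941 bases, held 6.25% to 14.9%. The coding Gpi1-205, of 581 bases, was at 6.10, 0 and 29.8 TPM in MO1, MO2 and MO3 against 34.2, 97.3 and 41.4 TPM in MC1, MC2 and MC3, so MC2 was the highest there too, with 15.3% of its Gpi1 TPM. Pgam1-201 and Pgk1-201 each held over 98% of their gene in each library, and Tpi1-205 held at least 92.3%.

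The transcripts of Aldoc differed between libraries. Its main coding transcript, Aldoc-202, was at 0.170, 0.889 and 0.188 TPM in MO1, MO2 and MO3 against 0.566, 0.453 and 0.690 TPM in MC1, MC2 and MC3, and the groups overlapped. Aldoc-204, a processed transcript of 788 bases without a coding frame, was listed at 0 in MO1, MO2 and MO3 against 0.107, 3.94 and 1.13 TPM in MC1, MC2 and MC3. MC2 thus had 62.3% of its Aldoc TPM in Aldoc-204. Aldoc-206, another processed transcript, was at most 0.240 TPM in MS-5 only and was at 0, 1.86 and 0.580 TPM in MC1, MC2 and MC3. The coding Aldoc-201 was listed at 0 in MS-5 only and did not exceed 0.150 TPM in co-culture, and Aldoc-205, a retained intron, was above 0 in MO2 alone. The excess of MC2 was 4.93 for Aldoc as a whole, inside the range of the leukocyte markers, and 1.05 to 1.30 for the other 7 genes. The part of SKM-1 RNA in the Aldoc counts was not tested.

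Most of these genes have processed pseudogenes, which are copies of the spliced transcript elsewhere in the genome. A search with blastn for genes at least 80% identical over at least 300 bases found 323 for Gapdh, 13 for Aldoa, 7 for Tpi1, 6 for Pgk1, 5 for Pgam1 and 1 for Gpi1, and 0 for Aldoc and Pgam2. Of the 323 look-alikes of Gapdh, 145 had no count in any library and 24 had at least 50 counts in 1 library. Their summed counts were nevertheless 246% to 283% of the counts of Gapdh itself in every library. Most of that was Gm13394, a processed pseudogene (chr2:28933610-28934609, minus strand) that is 99.9% identical over 1000 bases. It was given 71608, 41696 and 52637 counts in MO1, MO2 and MO3 against 147483, 85829 and 72398 in MC1, MC2 and MC3. The counts of the pseudogene ran parallel to those of Gapdh, at 201% to 227% of them. Reads from stretches in which the gene and its copy are identical cannot be told apart. The absolute level of Gapdh is therefore uncertain. With all look-alikes added the level was 3.69 times as high in MS-5 only, the log2 fold change was again 0.67, and the ratio of Aldoa to Gapdh, each with its look-alikes, was 0.257 ± 0.0356 and 0.379 ± 0.0327.

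To show how close the copies are, 60 bases of the coding sequence of Gapdh, counted from the start codon, are given beside those of Gm13394 (GENCODE M21). They do not differ.
Gapdh: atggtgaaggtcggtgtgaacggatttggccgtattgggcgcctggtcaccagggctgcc
Gm13394: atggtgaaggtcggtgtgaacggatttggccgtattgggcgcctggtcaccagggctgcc

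Look-alikes of Pgk1 had 21.6% to 38.4% of the counts of Pgk1, most of them in Gm5537, which is identical over 1252 bases (chr3:58102996-58104247, minus strand). For Pgam1, Pgam1-ps2 is identical over 765 bases (chr7:27469771-27470535, minus strand) and had 2295, 989 and 1452 counts in MO1, MO2 and MO3 against 5112, 3172 and 2405 in MC1, MC2 and MC3, or 6.37% to 10.5% of Pgam1. Pgk1 and Pgam1 are thus uncertain by such shares. With all look-alikes added, the groups still overlapped for Pgk1 and still did not for Pgam1, Tpi1, Aldoa and Gpi1.

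Other look-alikes followed a different course. Aldoart2, a retrogene of Aldoa (chr12:55565239-55566896, plus strand) that is 89.0% identical over 1341 bases, had 5, 2 and 1 counts in MO1, MO2 and MO3 against 437, 1884 and 334 in MC1, MC2 and MC3. Gm1840, a copy of Gpi1 (chr8:5639580-5641011, plus strand; 98.7% identity), had 9.10, 9.09 and 10.1 estimated counts and then 220, 778 and 164. Pgk1-ps1 (chr16:81908998-81909462, plus strand; 96.3%) had 3, 7.03 and 0, and then 188, 804 and 136. In all 3 MC2 was the highest library, as for the leukocyte markers and unlike for Aldoa, Gpi1 and Pgk1 themselves, where it was MC1. Gm5210, a copy of Gapdh (chr15:8917798-8929171, minus strand; 90.8%), had 3, 0 and 5 counts and then 212, 1080 and 170.

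The bases in which Aldoart2 and Gm5210 differ from Aldoa and Gapdh are shown in capitals, in 60-base coding stretches that hold the median number of differences: 4 for Aldoart2 (from coding base 1) and 3 for Gm5210 (from coding base 217).
Aldoa: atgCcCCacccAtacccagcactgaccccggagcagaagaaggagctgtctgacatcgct
Aldoart2: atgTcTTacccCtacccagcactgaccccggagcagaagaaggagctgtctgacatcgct
Gapdh: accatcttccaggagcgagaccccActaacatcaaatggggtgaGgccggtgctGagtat
Gm5210: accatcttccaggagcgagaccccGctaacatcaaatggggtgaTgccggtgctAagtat

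Of the 30 look-alikes with at least 50 counts in 1 library, 14 had an excess of MC2 over 3 times that of MC1 and MC3, a split made with the values in view. Since that split rests on the counts in co-culture, their values are a description, with no test. Of these 14, 11 were copies of Gapdh. Their identity to the gene was 86.3% to 98.7% (median 94.7%). Their summed counts were 115, 100 and 110 in MO1, MO2 and MO3 against 2360, 9578 and 1675 in MC1, MC2 and MC3. The other 16 had a median identity of 99.2% and held 94935, 54428 and 70187 counts in MO1, MO2 and MO3 against 201056, 122282 and 98424 in MC1, MC2 and MC3. Where the reads of the 14 came from was not tested.

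**Figure D4:**
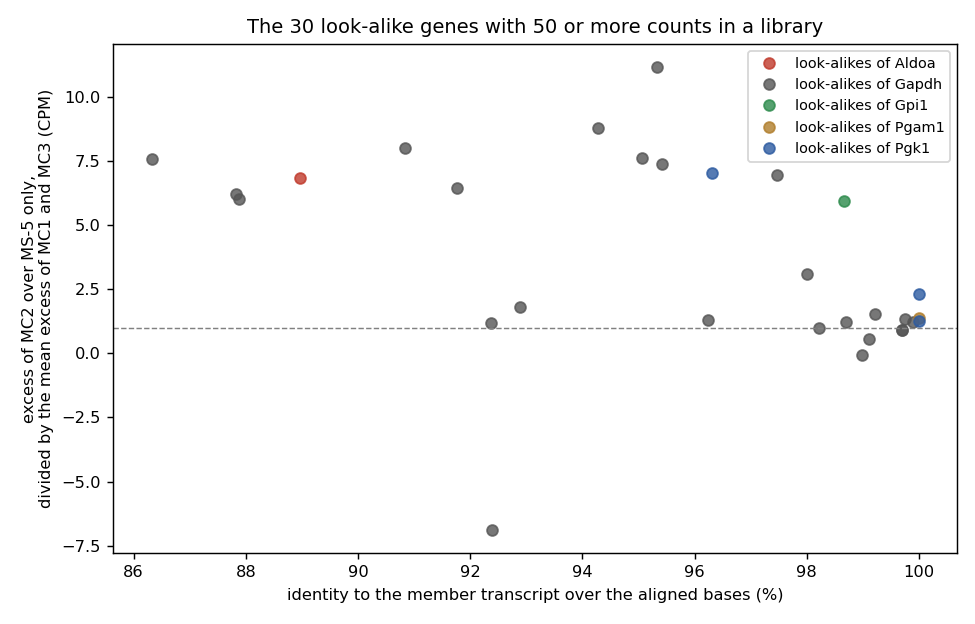
Each point is 1 of the 30 look-alike genes with at least 50 counts in 1 library, with its identity to the gene on the horizontal axis (%) and, on the vertical axis, the excess of MC2 over MS-5 only over the mean excess in MC1 and MC3 (CPM, the dashed line is 1). Of the 9 look-alikes at or above 99% identity, none exceeds 3, whereas 14 others reach from 3.10 to 11.1. The point at -6.87 is a copy of Gapdh with low counts.

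Among 22 genes of the steps before and after, 19 were tested, with a median log2 fold change of 0.85, and 5 rose, against 3.71% of all genes tested. The 5 were the glucose transporter Slc2a1 (1.42 ± 0.17), Hk2, a hexokinase (1.11 ± 0.22), Pfkl, a phosphofructokinase (1.60 ± 0.23), Slc2a3 (5.90 ± 1.13) and the enolase Eno2 (5.18 ± 0.99). Slc2a3 had 1, 2 and 0 counts in MO1, MO2 and MO3 against 27, 131 and 42 in MC1, MC2 and MC3, and Eno2 had 7, 19 and 6 and then 175, 803 and 160, so MC2 was the highest in both. Slc2a1, Hk2 and Pfkl thus passed the test with fold changes in the range of the 8 genes and with smaller errors. Of 23 genes at branches from the intermediates, such as transketolase and the glycerol phosphate dehydrogenases, 20 were tested and 1 rose, against 3.71% of all genes tested. It was Slc25a13, a mitochondrial carrier of aspartate and glutamate, with 1, 1 and 0 counts and then 37, 152 and 54. The median log2 fold change of the 20 was 0.02. When MO1, MO2 or MO3 was left out in turn, edgeR called 0 genes of any list, and 0 of all genes tested.

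**Figure D5:**
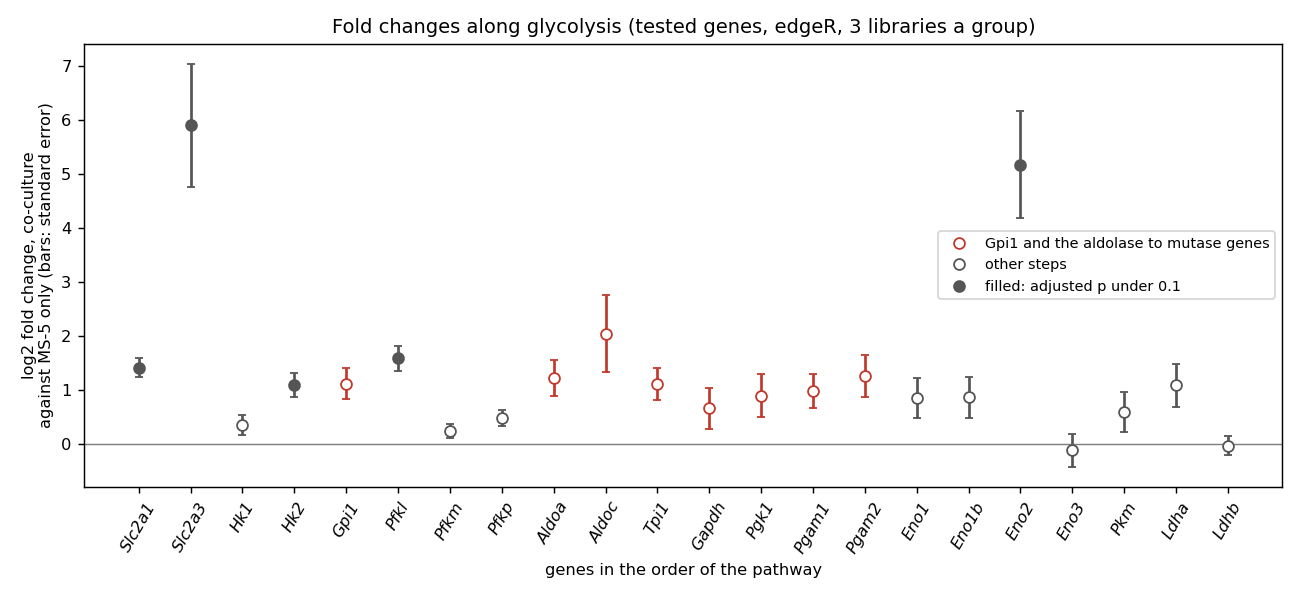
Log2 fold changes of co-culture against MS-5 only (vertical axis, bars are standard errors) for genes in the order of the pathway, with the 8 genes in red and other steps in grey. Filled points passed an adjusted p-value of 0.1 in edgeR's quasi-likelihood test. The red points run from 0.67 to 2.04 and are open, and the filled grey points are Slc2a1, Slc2a3, Hk2, Pfkl and Eno2.

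Among 14 genes in common use as references for qPCR, Gapdh and Pgk1 included, 0 passed edgeR's test, against 3.71% of all genes called higher. Limma on log2(TPM + 0.5) called 1 higher, against 2.56% of all genes. With the covariate for MO2 and MC3, 3 were called higher, against 13.9% of all genes. The median log2 fold change of the 14 was -0.09. Actb had the smallest (0.02 ± 0.27) and Pgk1 the largest. The log2 ratio of Gapdh to each of the other 12 was higher in co-culture by 0.28 to 1.38 (median 0.81), and its groups did not overlap for 7 of them. For Pgk1 the differences were 0.53 to 1.63 (median 1.06), with no overlap for 8.

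The levels of the 6 abundant genes were closely correlated over the 6 libraries. Pearson's r of log2 CPM was over 0.999 between Gpi1 and Tpi1, 0.996 between Gpi1 and Aldoa, and 0.990 between Gapdh and Pgk1, while Gapdh and Gpi1 had 0.914. Aldoc was the least alike, with 0.298 to Gapdh. These values have n = 6 libraries in 2 groups, share the scaling of each library, and are a description. The non-member genes most like the mean of the 8 among 9070 with a mean of at least 10 CPM were Gna13 (r = 0.998), Cdk5rap3 (0.995), Ppme1 (0.995), Ski (0.993) and Slc44a2 (0.991). Their own log2 fold changes were smaller, from 0.28 ± 0.12 for Ski to 0.49 ± 0.13 for Cdk5rap3.

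Of 14 targets of the hypoxia-inducible factors outside glycolysis, 13 were tested and 9 rose, against 3.71% of all genes tested. The median log2 fold change of the 13 was 1.10, close to the 1.12 of the 8 genes. Bnip3, a mitophagy receptor, had 584, 992 and 748 counts in MO1, MO2 and MO3 against 7016, 4249 and 6104 in MC1, MC2 and MC3, with a log2 fold change of 2.68 ± 0.19. P4ha1, a subunit of collagen prolyl hydroxylase, was at 1.33 ± 0.18, Mxi1, an antagonist of Myc, at 1.40 ± 0.17 and Ddit4, an inhibitor of mTORC1, at 1.07 ± 0.16. Slc16a3, a lactate exporter, was at 3.70 ± 0.73, with MC2 the highest at 480 counts against 141 and 155 in MC1 and MC3. Ndrg1, Ankrd37, Egln1 and Adm also rose, by 0.82 to 2.14 on the log2 scale.

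These factors bind a short core, ACGTG or GCGTG, and both were searched on either strand in the promoter windows of the 8 genes (250 bases before to 50 after the start, RefSeq, GRCm38.p6). The letters ACGTG also lie in the E-box CACGTG, which other factors bind. Of 32851 promoter windows, 43.8% held at least 1 of the letter runs, 19.6% ACGTG and 32.4% GCGTG. By gene, 46.7% of 27025 genes had a match in at least 1 of their windows. Each of the 8 genes had at least 1 promoter window, and they had 11 windows in total. Matches were found for 5 of the 8, namely Gapdh (3), Pgk1 (2), Pgam1 (3), Aldoc (3 and 1 in its windows) and Aldoa (1 in each of 2 overlapping windows, and 0 in the third), and 0 for Gpi1, Tpi1 and Pgam2. Whether a match in these windows bears on the fold changes was not tested. A match is a description of letters and not a site.

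The windows of Pgk1, Pgam1, Aldoa and Gapdh are given to show where the matches lie, in capitals (CACGT and CACGC are the same runs on the other strand), and that of Tpi1 as a window of an abundant gene without one. They are read 5′ to 3′ on the strand of the gene, at chrX:106186850-106187149 (plus), chr19:41911621-41911920 (plus), chr7:126799205-126799504 (minus), chr6:125165724-125166023 (minus) and chr6:124814109-124814408 (minus) in that order.
Pgk1: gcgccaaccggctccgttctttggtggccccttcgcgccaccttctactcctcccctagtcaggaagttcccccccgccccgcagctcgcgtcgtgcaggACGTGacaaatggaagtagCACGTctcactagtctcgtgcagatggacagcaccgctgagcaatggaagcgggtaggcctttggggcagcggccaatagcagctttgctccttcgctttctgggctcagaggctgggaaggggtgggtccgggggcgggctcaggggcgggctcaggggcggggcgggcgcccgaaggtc
Pgam1: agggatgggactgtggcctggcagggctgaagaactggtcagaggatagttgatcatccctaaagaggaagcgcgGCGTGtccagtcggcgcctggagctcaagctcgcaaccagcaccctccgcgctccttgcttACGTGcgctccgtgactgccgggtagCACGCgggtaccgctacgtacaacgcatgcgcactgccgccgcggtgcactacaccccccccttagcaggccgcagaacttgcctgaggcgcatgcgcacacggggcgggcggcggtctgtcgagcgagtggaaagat
Aldoa: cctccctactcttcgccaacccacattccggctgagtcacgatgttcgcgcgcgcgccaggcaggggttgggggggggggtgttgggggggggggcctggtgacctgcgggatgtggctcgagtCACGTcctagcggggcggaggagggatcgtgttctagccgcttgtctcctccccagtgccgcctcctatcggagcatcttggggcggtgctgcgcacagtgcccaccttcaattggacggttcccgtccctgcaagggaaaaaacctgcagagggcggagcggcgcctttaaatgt
Gapdh: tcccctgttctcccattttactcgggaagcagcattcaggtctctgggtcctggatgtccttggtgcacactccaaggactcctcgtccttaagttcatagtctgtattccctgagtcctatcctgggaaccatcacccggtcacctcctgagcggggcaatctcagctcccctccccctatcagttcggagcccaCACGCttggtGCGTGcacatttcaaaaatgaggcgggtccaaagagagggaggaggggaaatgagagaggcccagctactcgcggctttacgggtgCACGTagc
Tpi1: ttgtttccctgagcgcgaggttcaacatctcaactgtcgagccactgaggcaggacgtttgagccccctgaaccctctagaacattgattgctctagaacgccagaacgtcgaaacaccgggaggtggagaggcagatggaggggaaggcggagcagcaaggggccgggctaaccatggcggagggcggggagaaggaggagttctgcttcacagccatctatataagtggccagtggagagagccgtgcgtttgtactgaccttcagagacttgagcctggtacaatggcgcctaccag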

How the data were processed

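Per the labels and the study's methods, RNA was sequenced as stranded mRNA libraries, checked with FastQC 0.11.7 and quantified with kallisto 0.43.0 against a mouse GRCm38 cDNA index. The authors deposited for each transcript an estimated count, not normalized between libraries, and a TPM value, with the length and effective length in bases. Nothing was filtered or pooled by the authors, and their sleuth 0.30.0 results were not used here. The groups and replicate numbers came from the sample labels.

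Of 118489 transcripts, 116728 matched GENCODE M21 by identifier, and the other 1761 (0.476% to 0.562% of the counts) were left out. Estimated counts and TPM were summed per gene identifier. Counts were rounded, filtered with filterByExpr, scaled by TMM (factors 0.923 to 1.17) and tested with edgeR 4.0.16 (R 4.3.3), by the quasi-likelihood test, after a check on simulated data. P-values were adjusted by Benjamini-Hochberg, and 0.1 was the threshold. Each standard error was obtained from the fold change (log2) and the root of its F statistic. Alternatives were DESeq2 1.42.0, limma 3.58.1 on log2(TPM + 0.5), other pseudocounts (0.1 and 1), other scalings and filters, an effective length offset, a replicate block, a covariate for MO2 and MC3, libraries left out, sums with look-alikes and thresholds of 0.05 and 0.01. Look-alikes were sought with blastn 2.17.0.

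The genes and lists were chosen with earlier results of these data known. Named are the 8 genes, their transcripts with at least 5% of the gene (1 of Gpi1 by its length), look-alikes with at least 50 counts as examples, list genes past the threshold, the 5 genes most alike, and the reference genes with the smallest and largest change. Low counts add counting error for the rare Aldoc and Pgam2, and the spread between libraries enters the test of all 8 genes. Some sequence is not reported here.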

Additional observations from a re-analysis of the deposited data

How the results depend on the processing

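All 169 log2 fold changes of the 8 genes, over the alternatives run for each, were above 0, so the direction did not depend on the processing. The count of the 8 genes called higher did. It was 0 with TMM, 4 with library size, 5 with DESeq2's Wald test, 5 with limma on log2(TPM + 0.5) and with pseudocounts of 0.1 and 1, 8 with the covariate for MO2 and MC3, and 7 with both left out. The share of all genes called higher moved as well, being 3.71% with TMM, 3.28% with library size, 6.94% with DESeq2, 2.56% with limma at a pseudocount of 0.5, 3.65% at 0.1 and 1.60% at 1, 13.9% with the covariate and 8.33% with both left out. It was 0 with DESeq2's size factors, either other filter and the effective length offset, with 3.78%, 2.85% to 3.48% and 3.37% of all genes called higher, and 0 to 2 with each library left out in turn, the 2 being without MC3, with 0% to 3.91% of all genes. The ranges were 0.41 to 0.90 for the log2 fold change of Gapdh, 0.62 to 1.13 for Pgk1 and 1.19 to 3.05 for Aldoc. The second Aldoa identifier ranged from -0.30 to 0.12 with a library left out, and reversed to 0.01 without MO3 and to 0.12 without MC2.

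Of the genes before and after, 5 were called higher, against 8 with DESeq2's Wald test, 13 with the covariate, 10 with MO2 and MC3 left out, 0 at thresholds of 0.05 and 0.01, and 0 to 6 with each library left out. When MO1, MO2 or MO3 was left out in turn, edgeR called 0 of all genes tested. Each of these fits also had 1 library fewer in its group, and the reason for the loss of calls was not tested. For the branch genes the 1 called higher was 0 with limma, 0 at 0.05 and 0.01, and 0 to 1 with a library left out, and 6 were called lower with the covariate, 2 with both libraries left out, 1 with DESeq2's Wald test and 1 with the effective length offset. Among reference genes 1 was higher with limma, 3 with the covariate and 2 with both left out, and 3 were lower with the covariate. The shares of all genes called higher in these fits are those given above. In either direction, 3999 of 13221 genes were called with the covariate, 1835 of them higher. With both libraries left out it was 1702 of 13047, with 1087 higher. DESeq2's Wald test called 1278, with 918 higher, and the fit with the effective length offset 490, with 446 higher. The 9 targets of the hypoxia-inducible factors became 1 at 0.05, 0 at 0.01, and 0 to 7 with a library left out.

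The labels do not say whether libraries of the same replicate number were paired. Deviations from the group means correlated at 0.53 between MO1 and MC1, -0.29 between MO2 and MC2, -0.52 between MO3 and MC3, and 0.73 between MO2 and MC3. With 3 libraries a group and MO2 and MC3 apart from the others, these values cannot show whether libraries were paired. With the replicate block 0 of the 8 genes passed, and 5 of the hypoxia-inducible factor targets against 9 without it. In estimated counts in place of TPM, Aldoa-210 held 15.1% of Aldoa in MC2 and Gapdh-206 held a mean of 43.0% of Gapdh over the 6 libraries.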
